A study of Mus musculus with 9 samples.

Results

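Macrophages homozygous for the Stat6 S807E allele (genotype Stat6S807E/S807E, called SE below) were compared with wild type (WT) macrophages by poly(A) RNA sequencing. The comparison rests on 3 SE and 3 WT libraries, chosen by the genotype in the labels, of 9 libraries in all. The other 3 libraries carry alanine at the same residue (genotype Stat6S807A/S807A, called SA below). All cells were primary mouse peritoneal macrophages recruited by an irritant (Thio in the labels, the usual short form of thioglycollate), cultured in DMEM with serum and harvested after brief adherence, with no cytokine named. The labels give no strain, sex or age and do not say that the libraries of a genotype come from separate animals, so the p-values speak only for the spread among these libraries.

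STAT6 is a transcription factor activated by the receptors for interleukin-4 and interleukin-13. A ligand-bound receptor activates JAK kinases, these phosphorylate STAT6 on a tyrosine, and paired STAT6 enters the nucleus and binds DNA. In macrophages its targets make up much of alternative activation, a state linked to helminth infection, allergy and tissue repair and marked by arginase, chitinase-like proteins and lectins. Serine 807 lies in the carboxy-terminal part of the protein, which holds the transactivation domain. Glutamate carries a negative charge, and researchers often use it to imitate a phosphorylated serine. Per its title the series is about macrophage senescence and the phosphorylated form of this residue.

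The edited site is shown first because the comparison is defined by it. In the GENCODE M21 annotation (mm10) the codon for Ser807 is TCC, on the plus strand of chromosome 10 at 127659886 to 127659888. It lies in exon 22 of 22 of a Stat6 transcript with 837 coding codons. The reference sequence below, chr10:127659847-127659927, has 13 codons on either side, and capitals mark the codon. The edited allele itself was not read, since the data are counts per gene.

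Stat6 codon 807: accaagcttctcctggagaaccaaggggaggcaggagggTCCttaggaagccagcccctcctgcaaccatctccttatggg

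Stat6 mRNA was higher in SE. It stood at 198, 201 and 187 CPM (counts scaled to a common library total with TMM, edgeR's correction for library composition) in WT and at 291, 284 and 312 CPM in SE, so the groups did not overlap. The log2 fold change, SE minus WT, was 0.60 ± 0.06 (standard error, n = 3 in each group, edgeR quasi-likelihood test, adjusted p = 6.27e-06). SA averaged 198 CPM, and SE differed from SA too (adjusted p = 5.15e-06). Nab2, a corepressor gene whose span overlaps that of Stat6, differed by 0.04 on the log2 scale (adjusted p = 0.821).

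Of 13501 genes that passed the filter on low counts, 680 (5.04%) passed an adjusted p of 0.05 (Benjamini-Hochberg) and are called below. Of these 317 (2.35% of tested genes) were higher in SE and 363 (2.69%) were lower. Counts of called list members below are to be read beside these shares. Most differences were small. The median fold was 1.3 among the higher genes and 1.35 among the lower, 41 rose and 27 fell at least 2-fold, and 13 and 4 did so with a mean of at least 5 CPM. The WT and SE libraries did not overlap for 316 of the higher and 362 of the lower genes, against 20.4% of all tested genes. The exceptions were St8sia4 and Slc25a22. The median log2 difference over all tested genes was -0.003. Between SE and SA 1376 genes (10.2%) were called, and SE lay on the same side of SA as of WT, with a call, for 184 of the 317 and 206 of the 363. Comparisons of SE and SA with WT use the same WT libraries, so values in SA are set beside those in SE without a test of their likeness.

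**Figure D1:**
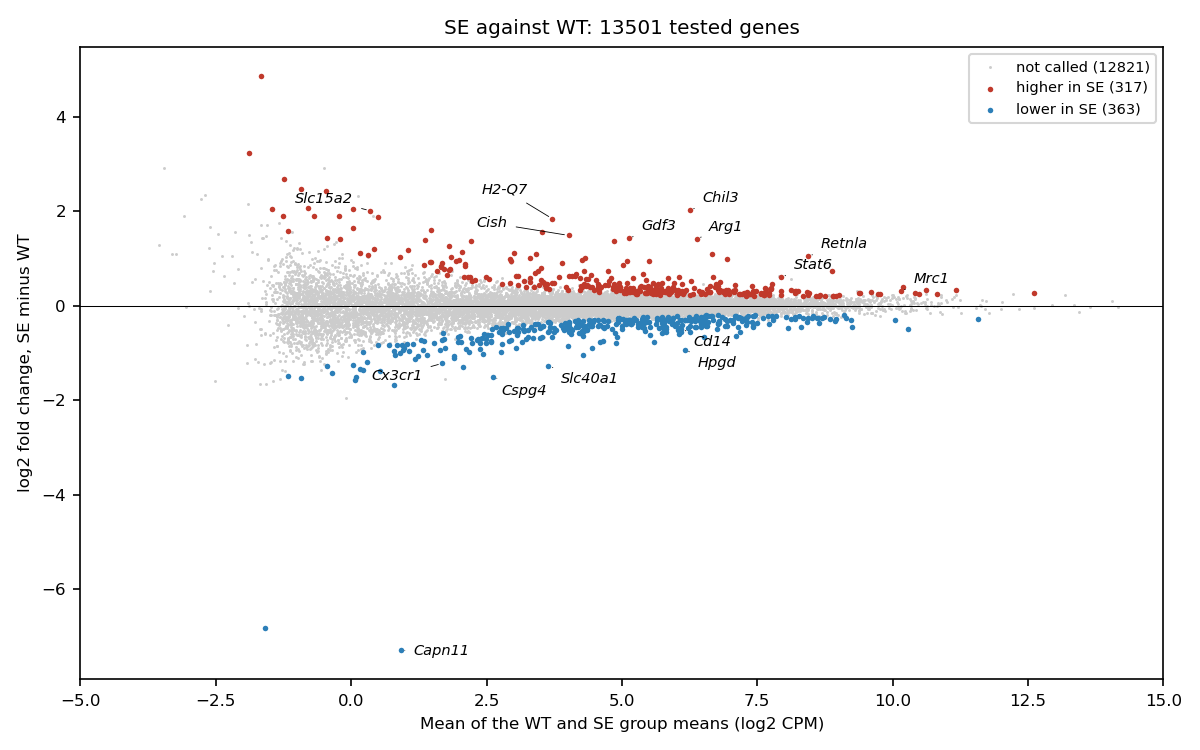
Each of the 13501 tested genes is drawn by its level (x axis, mean of the WT and SE group means in log2 CPM) and its log2 fold change, SE minus WT (y axis). The 317 genes higher in SE are red, the 363 lower are blue, and most lie near 0 while Chil3, Arg1, Cish, Gdf3 and H2-Q7 stand above and Capn11, Cspg4 and Slc40a1 below.

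Depth ran from 17286617 to 24618608 counts per library, and 3 counts were worth 0.122 to 0.174 CPM (counting error only). Markers of the labelled cell type were abundant. Csf1r, the receptor for macrophage colony-stimulating factor, averaged 5325 CPM in WT and 5035 in SE, and Lyz2, lysozyme, 11580 and 10590. Of the 12 macrophage core genes 3 were called lower (against 2.69% of all tested genes) and 0 higher. The fallen genes were Cd14, Fcgr1 and Mertk (adjusted p = 0.000219, 0.0157 and 0.0195), and only 1 was called lower without WT3. Log2 differences were negative for 8 of the 12, with a median of -0.105. The sum over the 12, which is mostly Lyz2 and Csf1r, was 21720 to 27340 CPM in WT and 22270 to 25160 in SE (exact permutation p = 0.7, 2-sided). With 3 against 3 libraries this test cannot give a p below 0.1. That value was reached by 3 marker lists of other cell types. The resident large peritoneal macrophage list summed to 64.3 to 73.85 CPM in WT and 46.5 to 49.3 in SE. Most of that sum is Cd5l and Fcna, the 2 of its 7 tested members that were called, while 4 of the 7 had positive log2 differences (median 0.064), among them Icam2 at 0.36 (adjusted p = 0.0768). Its defining gene Gata6 had at most 1 count in any of the 6 libraries. The monocyte and small peritoneal macrophage list summed to 328 to 346 CPM in WT and 450 to 489 in SE, or 298.5 to 311 and 342 to 355 over the 6 other members that passed the filter once Chil3 is left out. That remainder is mostly Fcrls, at a mean of 192 CPM in WT and 230 in SE, and Irf4, while 4 of the 7 tested members, Ccr2 (called lower), Itga1, F13a1 and Ms4a4c, had negative log2 differences, for a median of -0.288. The mesothelial and fibroblast list summed to 3.75 to 5.63 CPM in WT and 7.33 to 11.4 in SE, with 6 of 14 markers, among them Msln, Upk3b, Wt1 and Lum, at 0 in all 6 libraries. Of its 4 tested members 1, Col1a1, was called higher, and 3 had positive log2 differences (median 1.166). The part of these cells in the results was not tested, and in bulk RNA a change in the number of cells of a type cannot be told apart from a change in RNA per cell.

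The upstream machinery of the pathway was not called in the main fit. None of 8 tested receptor and kinase genes passed the test, with a median log2 difference of -0.041. DESeq2 called 0, and 1 was called higher with no filter on low counts. Without adjustment 2 were higher and 1 lower at p under 0.05. Il4ra, the shared receptor chain for interleukin-4 and interleukin-13, averaged 80.7 CPM in WT and 77.0 in SE (log2 difference -0.07 ± 0.08, adjusted p = 0.733). Jak2 had the smallest p of the list, at 102 CPM in WT and 119 in SE (adjusted p = 0.0936). Il4 itself was near the detection limit, at 0.92, 1.06 and 1.21 CPM in WT and 1.32, 0.70 and 0.42 in SE (adjusted p = 0.668). Of the 6 tested STAT genes Stat6 was the only one called. Stat3 and Stat5b averaged 144 and 88.0 CPM in WT and 135 and 80.1 in SE.

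Feedback inhibitors of cytokine signalling rose in part. Of 16 tested CISH, SOCS, phosphatase and PIAS genes 3 were higher and 0 lower, with a list median of -0.013. Cish, which blocks docking of STAT proteins at receptors, stood at 8.27, 7.40 and 9.77 CPM in WT and 22.7, 21.3 and 27.5 in SE (log2 1.48 ± 0.12, adjusted p = 1.45e-06). Socs1, an inhibitor of JAK kinases, stood at 19.8, 21.7 and 19.2 CPM in WT and 32.0, 34.1 and 34.8 in SE (log2 0.74 ± 0.08, adjusted p = 2.45e-05). Socs2 rose from 7.83, 7.57 and 8.52 CPM to 12.99, 13.2 and 12.6 CPM (1.62-fold, adjusted p = 0.000468). The lowest SE library lay above the highest WT library for each of these genes, and all 3 were also higher in SE than in SA. Socs3, which restrains signalling through STAT3, averaged 2.02 CPM in WT and 1.91 in SE (adjusted p = 0.902), and none of the phosphatase or PIAS genes of the list was called.

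Alternative activation genes formed the group with the largest share of calls. Of 46 symbols on the list 45 matched the annotation, 36 were tested and 9 fell under the filter, 6 of them Cd209 genes with at most 4 counts in any WT or SE library. Among the 36 tested, 20 rose (against 2.35% of all tested genes) and 1 fell, with a median log2 difference of 0.292. Of the 20 that rose, 11 were also higher in SE than in SA. The list holds genes that earlier results of these data had already shown to rise, so its count is a description. Across 14 other settings between 15 and 21 members were called higher.

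Several secreted products of the list rose. Chil3, a chitinase-like protein also called Ym1 (ENSMUSG00000040809, mm10 chromosome 3, 106147554 to 106167564), stood at 27.0, 28.65 and 35.1 CPM in WT and 107, 126 and 134 in SE (log2 2.02 ± 0.11, adjusted p = 3.17e-08). In SA it stood at 16.4, 22.3 and 19.6 CPM, below every WT library. Its close paralog Chil4 had 6, 5 and 3 counts in WT and 21, 22 and 26 in SE (5.4-fold, adjusted p = 0.0012). Reads of these neighbouring copies may be split between them, so their separate values are uncertain. Retnla, also called RELM-alpha, stood at 189.6, 257 and 233 CPM in WT and 419, 492 and 489.6 in SE (2.06-fold, adjusted p = 0.0003). Ccl24, a chemokine for eosinophils, was at 0.96, 0.59 and 0.84 CPM in WT and 1.91, 2.27 and 1.47 in SE (2.3-fold, adjusted p = 0.014). Rnase2a, of the eosinophil ribonuclease family, averaged 16.35 CPM in WT, 24.2 in SE and 9.67 in SA (adjusted p = 0.00393 for SE against WT). Its reads may be shared with Ear2, another member of that family, which averaged 5.79 CPM in WT and 5.62 in SE. Retnla was no longer called once WT2 and SE3 were both dropped (adjusted p = 0.054), and the Ccl24 call ended without WT3, SE1 or SE2 in turn (highest adjusted p over the 13 other settings in which it was tested = 0.0818).

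Some enzymes, transporters and surface proteins of the list rose as well. Arg1, arginase 1, stood at 46.7, 41.6 and 48.35 CPM in WT and 128, 118 and 118 in SE (log2 1.41 ± 0.08, adjusted p = 2.24e-08). SA averaged 47.0 CPM, and every SE library lay above every WT and SA library. Slc7a2, the arginine transporter of activated macrophages, stood at 350.5, 339 and 373 CPM in WT and 539, 635 and 601 in SE (adjusted p = 1.98e-06). Pdcd1lg2, the checkpoint ligand PD-L2, went from 29.9, 33.4 and 30.0 CPM to 57.85, 58.2 and 63.1 CPM (adjusted p = 1.58e-06). Cdh1, the adhesion protein E-cadherin, which macrophages make in response to interleukin-4, went from 7.15, 6.34 and 6.80 CPM to 15.7, 13.3 and 14.35 CPM (adjusted p = 2.99e-05). Mrc1, the mannose receptor, rose by a smaller step, from 1012, 974 and 1064 CPM to 1197, 1288 and 1279 CPM (1.23-fold, adjusted p = 0.00507). Mgl2, a galactose-binding lectin, rose from 13.02, 13.6 and 13.4 CPM to 29.1, 27.4 and 23.8 CPM (2.01-fold), and averaged 27.35 CPM in SA. Its levels in SE and SA did not differ beyond their spread (adjusted p = 0.877). Fn1, fibronectin, averaged 13.1 CPM in WT, 25.3 in SE and 35.6 in SA. Cd163, the haemoglobin scavenger receptor, was the 1 member that fell, from a WT mean of 10.6 CPM to 7.43 (adjusted p = 0.0192), and its call ended without WT3 or SE2 (highest adjusted p over all 14 other settings = 0.0855).

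Several transcription factors of the list rose. Batf3, which dendritic cells also use, averaged 32.65 CPM in WT and 51.5 in SE (1.58-fold, adjusted p = 5.02e-05). Myc, a growth regulator, averaged 35.4 and 51.7 CPM (1.46-fold, adjusted p = 0.0012). Egr2 averaged 308.5 and 374.5 CPM (1.21-fold, adjusted p = 0.00594, or 0.0544 without WT3). Egr2 also belongs to a list of immediate early and handling stress genes, of which 3 of 28 tested were higher (Egr2, Fosl2 and Jun) and 2 lower (Nr4a1 and Btg2), with a median of 0.048. Those counts were 1 and 1 without WT3, and 5 were higher without SE3 and 6 without WT2 and SE3 together. The part of handling in these values was not tested. Pparg, a lipid-sensing nuclear receptor, averaged 146 and 169 CPM (1.16-fold, adjusted p = 0.0307). The Pparg call ended in 8 of 14 other settings, among them leaving out WT1, WT3, SE1 or SE2 (highest adjusted p over all 14 other settings = 0.151). Not every classical member was called. Clec10a, Ccl17, Ccl22, Tgm2, Klf4 and Irf4 averaged 8.5, 1.71, 26.0, 153, 56.6 and 83.0 CPM in WT and 9.12, 1.73, 23.5, 159, 57.9 and 96.7 in SE (adjusted p = 0.766, 0.963, 0.339, 0.743, 0.835 and 0.0731).

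**Figure D2:**
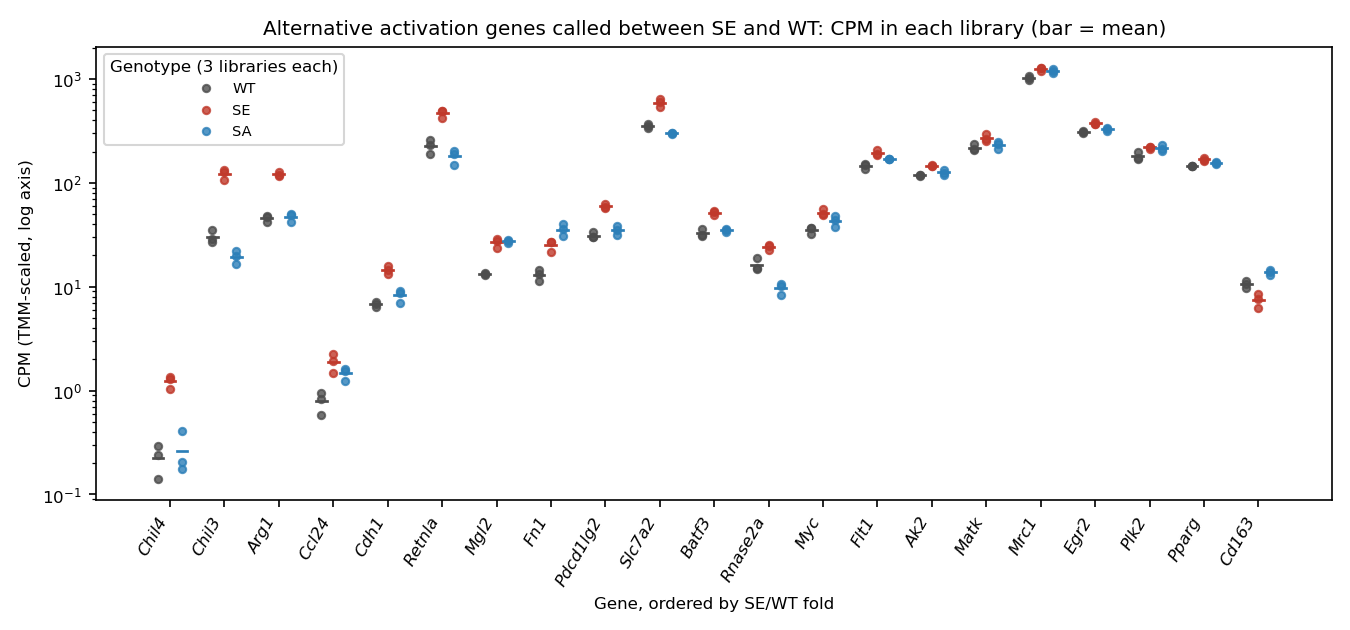
CPM on a log axis for the 21 called members of the alternative activation list, with 1 point per library (3 each of WT, SE and SA) and a bar at each mean. The SE points lie above the WT points for the 20 risen genes and below them for Cd163, and the SA mean lies near or below WT for Arg1, Retnla and Slc7a2 but near SE for Mgl2.

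Promoters were read for the letters that STAT6 is known to prefer, TTCNNNNGAA, a palindromic pair of half-sites with 4 bases between them. Promoter sequences of 13 of the 20 risen activation genes were found in the RefSeq table (GRCm38.p6), with several starts for some genes. The 2 genes with the motif in the 250 bases before a start were Retnla and Pdcd1lg2, and both stretches are shown 5′ to 3′ because these genes are among the risen members, with the motif in capitals. The motif begins 145 bases before the Retnla start and 82 bases before the Pdcd1lg2 start.

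Retnla, chr16:48842359-48842608, plus strand: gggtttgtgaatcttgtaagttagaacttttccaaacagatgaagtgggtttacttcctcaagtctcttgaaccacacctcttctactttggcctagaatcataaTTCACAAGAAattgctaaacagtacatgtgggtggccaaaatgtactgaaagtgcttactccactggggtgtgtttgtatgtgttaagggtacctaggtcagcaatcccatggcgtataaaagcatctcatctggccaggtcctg

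Pdcd1lg2, chr19:29410669-29410918, plus strand: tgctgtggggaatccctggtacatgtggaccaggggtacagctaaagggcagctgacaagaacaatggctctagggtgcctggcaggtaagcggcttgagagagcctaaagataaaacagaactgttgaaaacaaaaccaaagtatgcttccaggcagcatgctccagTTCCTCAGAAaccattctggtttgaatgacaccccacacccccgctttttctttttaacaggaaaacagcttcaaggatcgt

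Across all called genes the motif was about as frequent as in all promoters and slightly more frequent than in those of all tested genes. It was present on either strand in 24 of 327 promoters of genes higher in SE (7.34%, exact binomial 95% interval 4.76 to 10.7%), in 21 of 353 of genes lower in SE (5.95%) and in 6.95% of all 32851 promoters of the same 300 bases. In promoters of all tested genes its share was 5.58%. The related letters with 3 bases between the half-sites, TTCNNNGAA, are those that other STAT proteins prefer. They were present in 8.26% of promoters of higher genes and 7.37% of those of lower genes. Their share was 6.77% in promoters of all tested genes and 8.3% in all promoters. A motif of either spacing can overlap the other. The table held 252 of the 317 higher, 269 of the 363 lower and 9635 of all tested genes. Promoters of the same gene can overlap, so they are not independent and the interval is narrower than it should be.

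Other genes of arginine metabolism rose besides Arg1 and Slc7a2. Of 23 tested genes of arginine and polyamine metabolism 7 were higher and 0 lower (median log2 difference 0.078), and 6 of the 7 were also higher in SE than in SA. Slc7a1, another cationic amino acid transporter, stood at 13.7, 13.97 and 13.9 CPM in WT and 20.4, 22.2 and 21.3 in SE (adjusted p = 0.000642). Srm, spermidine synthase, averaged 18.7 CPM in WT and 27.0 in SE (adjusted p = 0.0053). Gatm, which starts creatine synthesis from arginine, averaged 175 and 225 CPM (adjusted p = 0.0014). Ass1, which rebuilds arginine from citrulline, averaged 17.7 and 23.6 CPM (adjusted p = 0.0146), a call lost when WT3 or SE1 was dropped (highest adjusted p over all 14 other settings = 0.0964).

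Some genes of amino acid supply rose as well. In the list of ATF4 targets, serine synthesis and amino acid uptake, 11 of 30 tested members were higher and 0 lower, with a median log2 difference of 0.238. Only 4 of the 11 were also higher in SE than in SA. Phgdh, the first enzyme of serine synthesis, stood at 6.47, 7.40 and 5.68 CPM in WT and 12.7, 12.1 and 14.5 in SE (log2 1.02 ± 0.12, adjusted p = 7.02e-05). Mthfd2, a mitochondrial folate enzyme, averaged 14.97 and 22.6 CPM (adjusted p = 0.00084), and Slc1a5, a glutamine carrier, averaged 58.2 and 80.2 CPM (adjusted p = 0.0003). Both also stood above WT in SA, at 21.2 and 73.6 CPM. Atf4, the transcription factor the list is named for, averaged 110 CPM in WT and 130.2 in SE (1.18-fold, adjusted p = 0.0163), a call lost when WT3 or SE1 was dropped (highest adjusted p over all 14 other settings = 0.102). The number of risen members was 7 without WT1, 4 without WT3 and 3 without SE1. On the unfolded protein response list 1 of 30 tested genes rose, Pdia4, which helps form disulfide bonds (3.33%, against 2.35% of all tested genes). Its call was lost when WT1, WT3, SE1 or SE2 was dropped, or WT1 and SE2 together (highest adjusted p over all 14 other settings = 0.155). Ddit3, a stress transcription factor that was also called higher, is not on that list.

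Several genes outside the activation list were among those with the largest rises. Gdf3, a TGF-beta family ligand, stood at 20.45, 16.4 and 19.9 CPM in WT and 51.4, 52.2 and 48.95 in SE (log2 1.42 ± 0.09, adjusted p = 6.51e-08). It was the only one of 26 tested TGF-beta family genes that was called (3.85%, against 5.04% of all tested genes). Tmem26, a membrane protein, stood at 63.3, 60.5 and 69.1 CPM in WT and 130, 142 and 141 in SE (log2 1.10 ± 0.07, adjusted p = 3.17e-08). Scn3a, a sodium channel subunit, stood at 14.9, 15.6 and 17.8 CPM in WT and 35.1, 46.3 and 42.8 in SE (2.57-fold, adjusted p = 1.45e-06). All 3 were also higher in SE than in SA, where they averaged 16.2, 53.7 and 11.97 CPM. Slc15a2, a carrier of small peptides, went from 0.60, 0.47 and 0.42 CPM to 1.62, 2.68 and 1.89 CPM (4.01-fold, adjusted p = 0.000412), and averaged 17.7 CPM in SA. Mboat2, a phospholipid acyltransferase, went from 0.84, 0.41 and 0.51 CPM to 2.55, 2.15 and 2.04 CPM (adjusted p = 0.000455), against 1.82 CPM in SA.

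Some class I antigen presentation genes rose. Of 25 tested class I and peptide-loading genes 6 were higher and 0 lower (median log2 difference 0.178), and 22 of 25 had positive differences. H2-Q7, a nonclassical class I gene, stood at 4.79, 6.40 and 6.14 CPM in WT and 19.1, 18.7 and 23.6 in SE (log2 1.84 ± 0.14, adjusted p = 5.08e-07). H2-Q6 averaged 5.82 CPM in WT and 17.2 in SE, H2-Q5 5.11 and 11.0, and H2-Q4 44.65 and 62.2, with no overlap between the groups in any of the 3. The H2-Q genes are near-identical copies, and how reads that map to several places were counted is not given in the sources used here, so their separate values are uncertain. H2-K1, a classical class I gene, averaged 1647 and 1960 CPM (1.19-fold, adjusted p = 0.0251), a call that ended without WT1, WT3, SE1 or SE3 (highest adjusted p over all 14 other settings = 0.132). In class II presentation 2 of 16 genes rose (12.5%, against 2.35% of all tested genes), Cd74 and H2-Aa, at 1.2-fold and 1.19-fold. The number that rose was 0 without WT1, WT3 or SE1 and 5 without WT2, without WT2 and SE3 together or with no filter.

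Calls were looked at by position in the genome because the edited gene sits on chromosome 10. Within 1 Mb of Stat6 on either side 2 of 61 tested genes were called (3.28%), and within 10 Mb 4 of 106 (3.77%), against 5.04% of all tested genes. The 2 within 1 Mb were Ddit3, a stress transcription factor, and Atp5b, a subunit of ATP synthase, both higher in SE. In the MHC region on chromosome 17, from H2-K1 to H2-M5 (mm10, 33996017 to 36989537), 9 of 103 were called (8.74%, exact binomial 95% interval 4.07 to 15.9%). All 9 were higher in SE, against 2.35% of all tested genes called higher. They include H2-Q4, H2-Q5, H2-Q6 and H2-Q7, whose reads may be shared. The 9 are therefore not independent, and the interval is narrower than it should be.

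Some pattern recognition receptors were called lower in SE. Of 25 tested Toll-like receptor genes and adaptors 5 fell and 0 rose (median log2 difference -0.089), and 3 fell in 7 of the other settings, among them those without WT1, WT3, SE1 or SE3. Cd14, a coreceptor for lipopolysaccharide, stood at 79.6, 77.9 and 83.0 CPM in WT and 57.95, 53.8 and 58.7 in SE, while SA averaged 100.3 CPM (adjusted p = 0.000219 for SE against WT). Tlr2, which senses bacterial lipoproteins, averaged 48.05 CPM in WT, 37.0 in SE and 60.7 in SA. Tlr13, a sensor of bacterial ribosomal RNA, averaged 383 CPM in WT and 300.1 in SE (adjusted p = 0.00705). Among 20 C-type lectin receptors 4 fell (2 without SE1) and 2, Mgl2 and Mrc1, rose. Clec4e, or Mincle, which binds mycobacterial glycolipids, stood at 9.55, 9.57 and 9.73 CPM in WT, 6.03, 5.70 and 5.60 in SE and at a mean of 17.8 in SA (adjusted p = 0.00151 for SE against WT). Clec4d, its partner, went from 155.5, 171 and 180.1 CPM to 109, 109 and 107.5 CPM (adjusted p = 6.69e-06), and SA averaged 117 CPM. In the NF-kB list 2 of 31 genes fell, Nfkbiz and Tnfaip2 (6.45%, against 2.69% of all tested genes). The number was 0 without SE1 and 1 without WT3 or SE2.

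**Figure D3:**
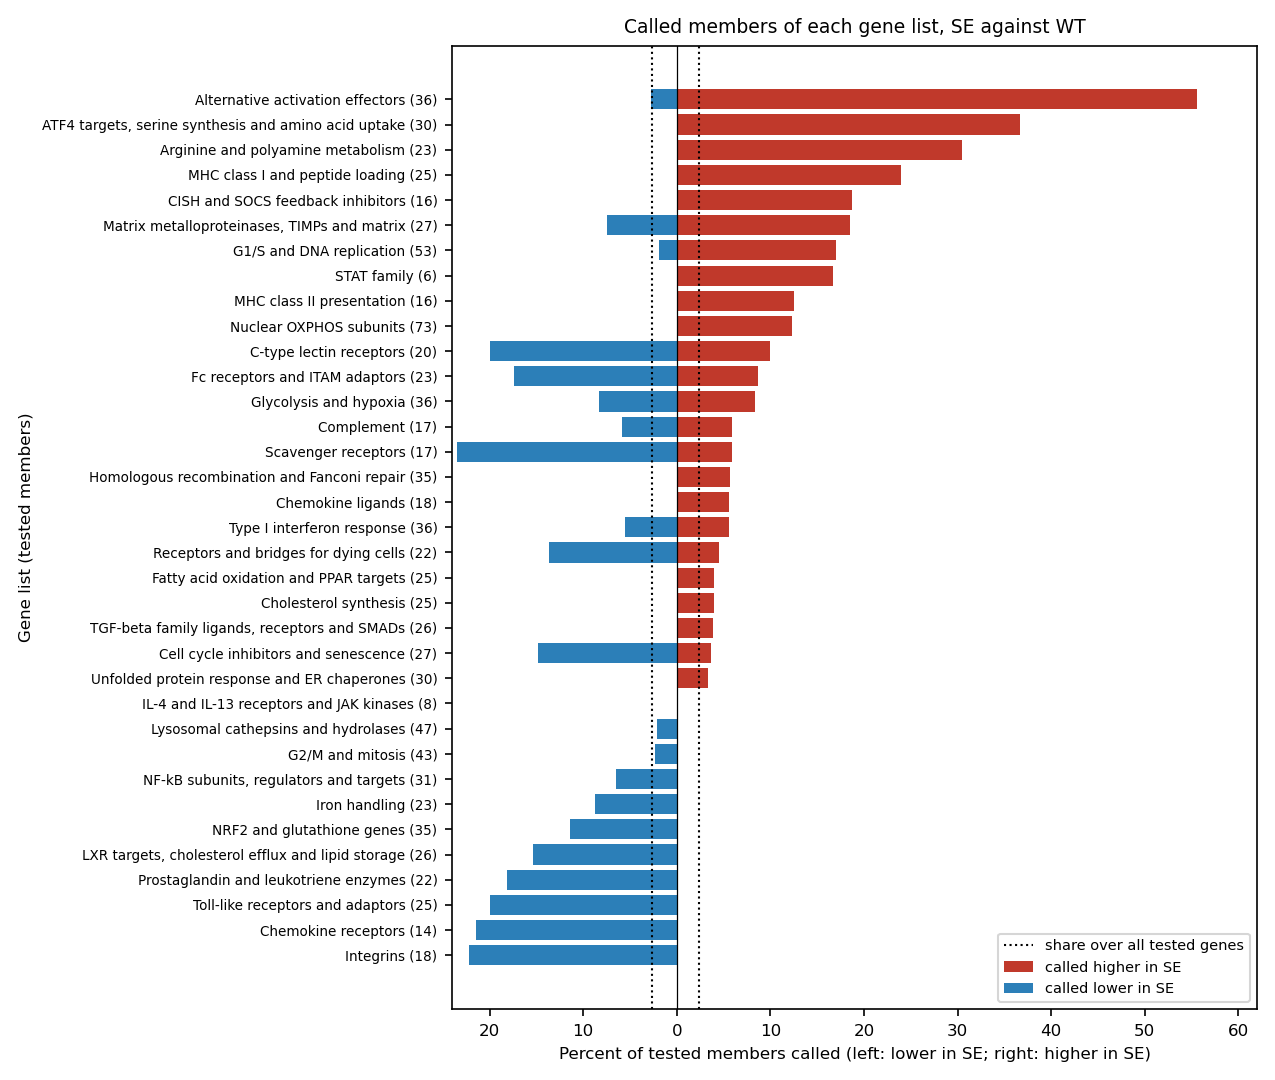
Percent of tested members called higher (red, right) and lower (blue, left) in SE for each pathway list of at least 5 tested genes, with the number tested in brackets and dotted lines at 2.35% and 2.69%, the shares over all tested genes. Alternative activation, ATF4 and amino acid supply, arginine metabolism and class I presentation stand farthest to the right, and scavenger receptors, integrins, chemokine receptors, Toll-like receptors and C-type lectins farthest to the left.

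Some receptors for migration and adhesion were also called lower. Of 14 tested chemokine receptor genes 3 were lower and 0 higher, and 12 had negative differences (median log2 -0.165). The number of fallen members was 1 without WT3 or SE1. Cx3cr1, the fractalkine receptor, stood at 5.03, 4.23 and 4.19 CPM in WT, 1.52, 2.27 and 2.04 in SE and at a mean of 8.33 in SA (log2 -1.22 ± 0.21, adjusted p = 0.00167 for SE against WT). Ccr2, which brings monocytes from blood, averaged 20.1 CPM in WT and 13.4 in SE (adjusted p = 0.00951), and Cxcr4 averaged 246 and 198 CPM (adjusted p = 0.00848). The Ccr2 call ended without WT1, WT3 or SE1 and that of Cxcr4 without WT3 or SE1 (highest adjusted p over all 14 other settings = 0.062 for each). Of 18 tested integrin genes 4 fell and 7 had positive differences. Itga6, a laminin receptor chain, stood at 124, 98.0 and 113 CPM in WT and 70.1, 71.2 and 69.7 in SE (adjusted p = 4.78e-05). The number of fallen integrins was 2 without WT3 and 1 without SE1.

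Clearance genes were mixed. Of 17 scavenger receptors 4 fell (2 without SE2) and Scarf1 rose, a call that ended without WT3 (adjusted p = 0.0597). Colec12, a collagen-like scavenger receptor, stood at 62.6, 58.2 and 62.1 CPM in WT and 35.4, 36.5 and 35.3 in SE (log2 -0.77 ± 0.06, adjusted p = 1.45e-06). Cd5l, a secreted scavenger protein of tissue macrophages, stood at 34.3, 41.6 and 34.8 CPM in WT, 23.4, 22.75 and 23.4 in SE and at a mean of 18.2 in SA (adjusted p = 0.000123 for SE against WT). Cd5l and Fcna, a ficolin that averaged 22.1 CPM in WT and 14.8 in SE, are also the 2 called members of the resident macrophage list, whose other 5 tested members were not called. Among receptors and bridges for dying cells 3 of 22 fell and C1qa rose, a call lost when WT3 or SE1 was dropped (highest adjusted p over all 14 other settings = 0.0749). Thbs1, thrombospondin 1, stood at 10.75, 12.15 and 12.1 CPM in WT, 6.82, 6.75 and 7.91 in SE and at a mean of 20.5 in SA (adjusted p = 0.0012 for SE against WT). Of 23 Fc receptor and ITAM genes 4 fell and 2 rose, and 0 fell without WT3 while 1 did without SE1 or SE2.

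Genes of lipid mediators were among those that fell. Of 22 tested enzymes of the prostaglandin and leukotriene pathways 4 were lower and 0 higher, while 9 had positive differences (median log2 -0.058). All 4 calls were kept in each of the 14 other settings where the gene was tested. Hpgd, which inactivates prostaglandins, stood at 98.9, 87.1 and 96.5 CPM in WT and 52.1, 50.2 and 45.1 in SE (log2 -0.94 ± 0.08, adjusted p = 1.58e-06). Hpgds, which makes prostaglandin D, averaged 123.5 and 95.0 CPM (adjusted p = 0.00271). Alox5, which begins leukotriene synthesis, stood at 4.39, 5.69 and 5.35 CPM in WT and 2.70, 1.86 and 2.46 in SE (adjusted p = 0.000689), and its activating protein Alox5ap averaged 124 and 96.9 CPM (adjusted p = 0.00155). All 4 were also lower in SE than in SA.

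Export of iron and cholesterol was represented among the falls. Slc40a1, or ferroportin, the iron exporter, stood at 16.1, 17.7 and 19.4 CPM in WT, 6.72, 7.62 and 7.49 in SE and at a mean of 12.3 in SA (log2 -1.28 ± 0.13, adjusted p = 8.67e-06 for SE against WT). It and Cd163 were the 2 of 23 iron genes called (8.7%, against 5.04% of all tested genes), with a list median of -0.057. The number of fallen iron genes was 1 without WT3 or SE2 and 4 with WT2 and SE3 left out together. Abca1, which loads cholesterol onto lipoproteins, stood at 165, 176 and 175.5 CPM in WT and 96.8, 122 and 132 in SE (adjusted p = 0.000667). It was 1 of 4 fallen among 26 LXR and lipid storage genes (15.4%, against 2.69% of all tested genes), a count of 2 without SE1. The list median was -0.046. Of 25 cholesterol synthesis genes 1 rose, Dhcr7 (4.0%, against 2.35% of all tested genes). Its call ended without WT1, WT3, SE1 or SE3 (highest adjusted p over all 14 other settings = 0.0783). In the NRF2 and glutathione list 4 of 35 fell. Me1, malic enzyme, averaged 10.1 CPM in WT and 6.54 in SE, and Cat, catalase, 323 and 266 CPM. The adjusted p was 0.00324 and 0.00415.

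The largest falls among genes of at least 5 CPM included several that also fell in SA. Cspg4, a proteoglycan, stood at 9.11, 8.63 and 9.54 CPM in WT, 2.60, 2.56 and 4.45 in SE and at a mean of 2.56 in SA (log2 -1.50 ± 0.18, adjusted p = 0.000109 for SE against WT). Mamdc2 averaged 20.6 CPM in WT, 11.3 in SE and 7.23 in SA, and Adra1a, an adrenergic receptor, 10.7, 5.78 and 4.93. Others stood near WT in SA. Rab4a, of endosome recycling, averaged 7.23 CPM in WT, 3.55 in SE and 7.06 in SA. Bmf, which promotes cell death, averaged 28.4, 15.2 and 29.7, and Wdfy1, an endosomal adaptor, 37.6, 21.6 and 39.2. For Rab4a, Bmf and Wdfy1 the difference between SE and SA was called, with adjusted p = 0.000162, 9.16e-06 and 1.42e-06.

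Capn11, a calpain protease gene, was nearly absent from both mutants. It had 81, 66 and 89 counts in WT, 0, 0 and 1 in SE and 0, 2 and 0 in SA (adjusted p = 5.08e-07 for SE against WT). Scaled for library size, the summed WT count was 210 times the summed SE count, with a counting interval of 37.4 to 8350. Gm47601, a noncoding transcript within an intron, had 25, 6 and 14 counts in WT, 0 in every SE library and 14, 14 and 10 in SA. It was chosen after its counts were seen. Set against a floor of 3 counts over the SE group, the WT level was 13.4-fold higher, with the WT counts taken as exact. The counting interval of the ratio, which also covers the WT counts, began at 10.4. Neither value covers the spread among the WT libraries.

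**Figure D4:**
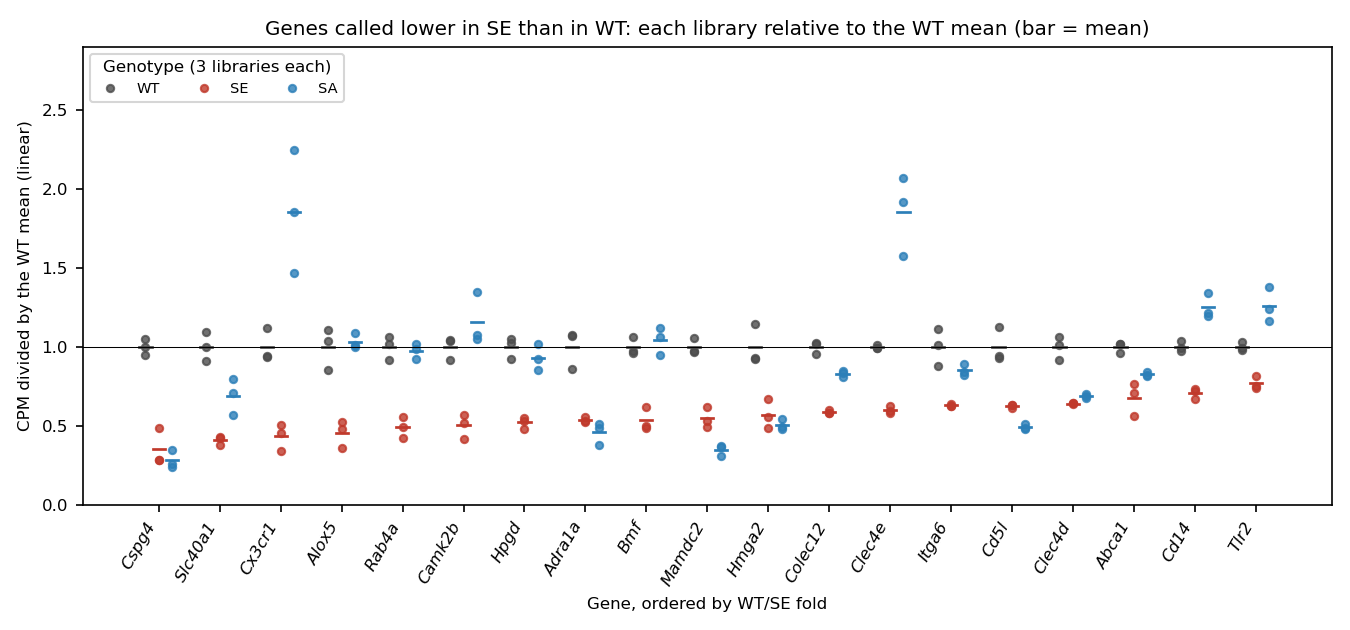
Each library's CPM divided by the WT mean of the same gene (linear axis) for 19 genes called lower in SE, with 1 point per library and a bar at each mean. The SE points lie below all WT points for each gene shown, while the SA mean lies below that of SE for Cspg4, Mamdc2, Adra1a, Hmga2 and Cd5l and farthest above WT for Cx3cr1, Clec4e, Tlr2 and Cd14.

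Cell cycle genes were examined because the series concerns senescence. Of 53 tested G1/S and replication genes 9 rose and 1 fell, 49 had positive differences and the median was 0.275 on the log2 scale. Only 3 of the 9 were also higher in SE than in SA. Uhrf1, which maintains DNA methylation, stood at 14.1, 14.03 and 13.3 CPM in WT and 25.6, 20.3 and 19.8 in SE (adjusted p = 0.00459). Mcm7, of the replicative helicase, stood at 22.1, 24.8 and 20.15 CPM in WT and 37.1, 27.8 and 30.6 in SE (adjusted p = 0.01, highest adjusted p without WT3 or SE1 0.089). SE1 was the highest library for both. With no filter 14 members rose, but only 1 did without WT3 or without SE1, and 5 with WT1 and SE2 both left out. Of 43 tested G2/M genes 0 rose and 1 fell (2.33%, against 2.69% of all tested genes). The fallen gene was Cenpa, a centromeric histone (adjusted p = 0.00829, or 0.0574 without WT3). The number of risen G2/M genes was 2 without WT1 and 1 with DESeq2. Their median was -0.01 in SE, and -0.456 in SA. The difference between the G1/S and G2/M lists was not tested.

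Of 27 tested cell cycle inhibitor and senescence genes 4 fell and 1 rose, with a median of -0.066, and 2 fell without WT3. Cdkn1a, which encodes p21, averaged 223 CPM in WT and 219 in SE (adjusted p = 0.891). Cdkn2a, the p16 gene, was near detection with 0 to 3 counts in each library. Il6 was at 0 in all 6, which at this depth allows up to 0.122 to 0.174 CPM. Igfbp4, a binding protein of insulin-like growth factors, stood at 52.9, 59.9 and 54.3 CPM in WT and 37.1, 32.0 and 38.7 in SE (adjusted p = 0.0003). Cdkn1b, which encodes p27, averaged 38.1 and 29.2 CPM (adjusted p = 0.0216), a call that ended without WT1, WT3, SE1 or SE3 (highest adjusted p over all 14 other settings = 0.111). Hmga2, a chromatin protein, averaged 8.81 CPM in WT, 5.04 in SE and 4.47 in SA. Gadd45b, a stress-induced gene, was the 1 that rose, from a WT mean of 70.6 CPM to 90.8 (adjusted p = 0.00263). In homologous recombination and Fanconi repair 2 of 35 rose, Fanci and Brip1 (5.71% of the list called, against 2.35% of all tested genes called higher). The number that rose ranged from 0 without WT3, SE1 or SE2 to 4 without SE3 and 6 without WT2 and SE3 together.

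Some nuclear genes of oxidative phosphorylation were called higher by a small amount. Of 73 tested, 72 had positive log2 differences, 9 were called higher and 0 lower, and 64 were not called. The median was 0.146. Atp5b stood at 736, 824 and 770.0 CPM in WT and 928, 888 and 956 in SE (1.19-fold, adjusted p = 0.0157). Ndufa11, of complex I, averaged 30.0 and 38.3 CPM (1.28-fold, adjusted p = 0.0167). WT2 was the highest WT library for both, and the number called was 26 without WT2, 25 without WT2 and SE3 together, 4 without SE3 and 0 without WT1, WT3 or SE1. Atp5b and Ndufa11 were among the calls that ended without those libraries (highest adjusted p over all 14 other settings = 0.0964 and 0.0921). The median of the cytosolic ribosomal protein genes was 0.033. Neither the main edgeR fit nor DESeq2 called any of the 70 tested, of which 53 had positive differences. Without adjustment 1 was higher and 1 lower at p under 0.05. The number called higher was 2 without WT2 and 2 without WT2 and SE3 together. In the glycolysis and hypoxia list 3 of 36 rose and 3 fell (16.7% called, against 5.04% of all tested genes). Without WT3 the counts were 0 and 1. Pfkp, a phosphofructokinase, averaged 268 and 321.5 CPM (adjusted p = 0.00721, or 0.0677 without WT3), and Ndrg1, a hypoxia-induced gene, averaged 49.15 and 35.2 CPM (adjusted p = 0.00458).

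**Figure D5:**
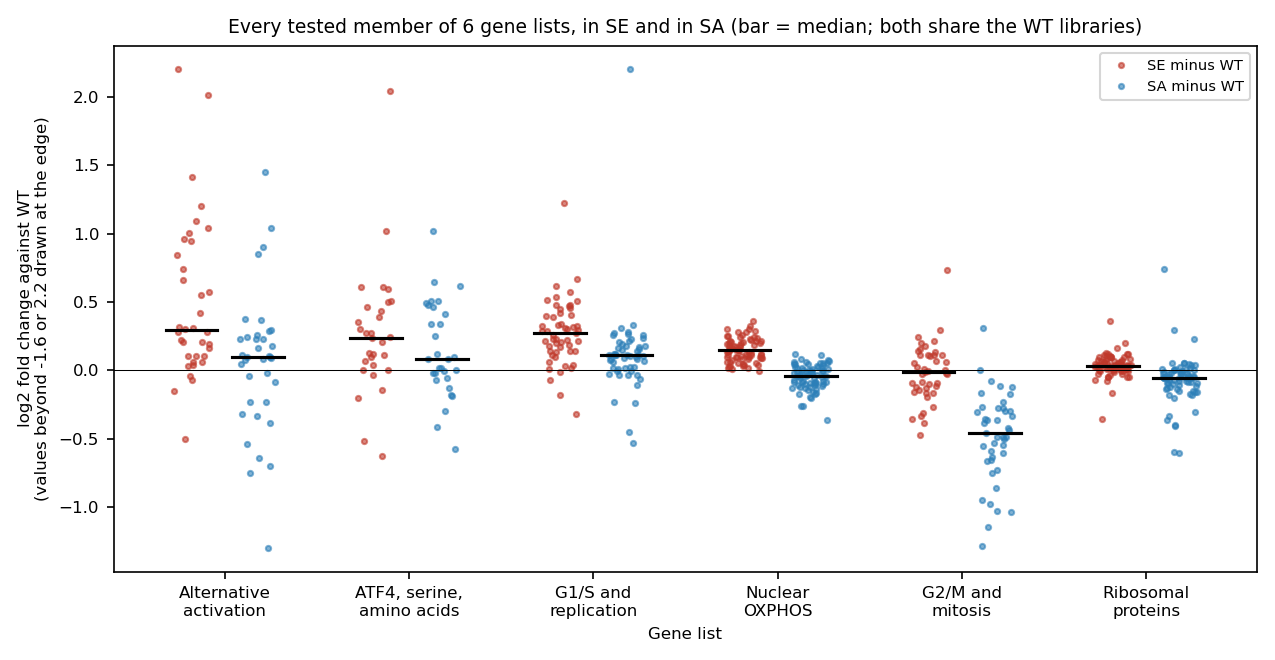
Each tested member of 6 gene lists is drawn by its log2 fold change against WT, red for SE and blue for SA, with a black bar at each median. In SE the medians are 0.292, 0.238, 0.275, 0.146, -0.01 and 0.033 from left to right, and the G2/M median is -0.456 in SA. Both comparisons use the same WT libraries.

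Some matrix genes rose in SE. Of 27 tested matrix, protease and inhibitor genes 5 rose, 2 fell and 20 were not called, and 2 rose among genes of at least 5 CPM. Log2 differences were negative for 11 of the 27. The list median was 0.181 in SE and 0.818 in SA, and 0 of the 5 risen genes were called higher in SE than in SA. Col1a1, a chain of type I collagen, stood at 1.20, 1.29 and 1.68 CPM in WT, 4.07, 3.49 and 4.97 in SE and at a mean of 19.2 in SA (adjusted p = 5.67e-05 for SE against WT, 1.1e-08 for SE against SA). Sparc, a collagen-binding protein, averaged 0.713 CPM in WT, 1.53 in SE and 8.15 in SA (adjusted p = 0.00752 for SE against WT). Its call ended with WT1 and SE2 left out together (adjusted p = 0.0595). Col1a1 is also the called member of the mesothelial and fibroblast list, whose summed level did not overlap between the groups. Dcn, a fibroblast proteoglycan of that list, had 0 to 2 counts in each of the 6 libraries. Mmp8, a neutrophil collagenase that macrophages also make, fell from 59.6, 51.95 and 57.8 CPM to 42.8, 42.3 and 44.35 CPM (adjusted p = 0.00324). It was the 1 called of 5 tested members of the neutrophil list, of which 2 had positive log2 differences. That list summed to 225.8 to 247.5 CPM in WT and 233.7 to 256.3 in SE. Most of the sum is Csf3r, which averaged 178 CPM in WT and 197 in SE and was not called. Ly6g, a neutrophil surface marker, was at 0 in all 6 libraries, while S100a9 had 12, 7 and 5 counts in WT and 9, 16 and 15 in SE. The part of neutrophils in the Mmp8 values was not tested.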

How the data were processed

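Poly(A) RNA of 9 macrophage libraries (3 each of WT, SA and SE) had been sequenced. The authors deposited raw read counts per Ensembl mouse gene. Per the submitters' processing notes the tools were HISAT2 2.1.0 and featureCounts with the build mm10. Strandedness, annotation release and the counting of multi-mapping reads were not given in the sources used here. By ID, 55141 of the 55401 genes matched GENCODE M21, and all 37 mitochondrial genes had 0 counts.

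One model over all 9 libraries was fitted in edgeR 4.0.16 (R 4.3.3; filterByExpr, minimum count 10 and minimum total 15; TMM; robust quasi-likelihood fit on genotype; 6 residual degrees of freedom; biological coefficient of variation 6.75%). Contrasts were tested 2-sided and adjusted by Benjamini-Hochberg over 13501 genes. Keeping SA in the fit adds to the estimate of spread. The standard error of a log2 fold change is its size divided by the square root of F. DESeq2 1.42.0 and other settings served as alternatives, and the fit was tested on simulated data. Total counts set the precision: at the lowest depth 3 counts are 0.174 CPM. No 2 libraries of the same genotype agreed within sampling noise.

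The comparison, the 50 gene lists (1264 of 1270 symbols matched) and the tests were chosen with earlier results of these data known. The rule named Stat6, the 12 risen and 12 fallen genes of largest change with at least 5 CPM and no overlap, the 5 of smallest p each way, genes under 1 CPM in one group and at least 2 CPM in the other, up to 4 risen and 4 fallen members of each list or its member of smallest p, and the 2 most abundant markers. Other list members, Nab2, Gm47601 and all genes in the closing section were chosen after their values were seen. Some genes that the rule names are not reported here.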

Additional observations from a re-analysis of the deposited data

How the results depend on the processing

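Of the 680 calls, 221 were kept in each of 14 other settings in which the gene was tested, and no call changed sign in any of them. The counts moved most with single libraries. Leaving out 1 library at a time gave 292 (without WT3) to 1097 (without WT2) called genes, 115 to 549 higher and 177 to 548 lower. Without SE1 332 were called. Fitting WT and SE alone gave 438 (202 higher, 236 lower). WT2 and SE3 stood at one end of the third component of log2 CPM (14.6% of the variance) and WT1 and SE2 at the other. Leaving out WT2 and SE3 gave 1215 (584 and 631), and leaving out WT1 and SE2 gave 372 (157 and 215). The cause was not tested. Stat6 was called in every setting, with log2 differences of 0.56 to 0.63. The other settings stayed within 1.5 times of the 680: 692 with library totals alone (285 and 407, so that 41.2% of calls were higher against 46.6%), 890 with no filter, 604 among genes of at least 5 CPM and 766 with DESeq2. With the replicate block the count was 568 (267 and 301). Same-numbered WT and SE libraries deviated together with correlations of 0.105, -0.195 and -0.042, so the numbers were not taken to pair the samples. Windows of 1, 5 and 10 Mb around Stat6 held 3.28%, 2.41% and 3.77% called genes. In the 250 bases before the start the TTCNNNNGAA share was 6.42% for higher genes, 4.76% for tested genes and 5.85% for all promoters.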

Other observations

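Genes that assemble ribosomes were among those higher in SE, although the ribosomal protein genes themselves were not called in the main fit. In a list of 40 ribosome biogenesis genes written after the values were seen, all 40 had positive log2 differences, 14 were called higher and 0 lower, and the median was 0.263 in SE and 0.055 in SA. Because the list was made after the fact, the count is a description of these genes. Nop56, a core protein of small nucleolar particles, stood at 45.3, 37.2 and 36.6 CPM in WT and 57.0, 57.7 and 52.15 in SE (edgeR adjusted p = 0.00172). Tsr1, of small subunit assembly, stood at 17.3, 17.85 and 17.55 CPM in WT and 22.7, 23.1 and 24.9 in SE (edgeR adjusted p = 0.00311). These were the 2 whose calls were kept in each of 14 other settings. The count of called members was 6 without SE1, 2 without WT3 and 5 without WT1 and SE2 together. Prps1, which makes the sugar phosphate for nucleotide synthesis, stood at 20.6, 23.7 and 24.4 CPM in WT, 40.1, 42.8 and 42.15 in SE and at a mean of 19.3 in SA (edgeR adjusted p = 3.17e-05).

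Other genes outside the lists, also picked after their values were seen, differed between SE and WT with no overlap between the libraries. Gpc1, a heparan sulfate proteoglycan, stood at 79.1, 85.0 and 83.2 CPM in WT, 156, 152 and 178.5 in SE and at a mean of 92.7 in SA (edgeR adjusted p = 5.08e-07). Ocstamp, which acts in the fusion of osteoclasts and macrophages, rose from 24.4, 23.7 and 21.7 CPM to 50.7, 41.4 and 42.5 CPM (edgeR adjusted p = 5.43e-05). Its partner Dcstamp averaged 35.9 CPM in WT and 34.4 in SE (edgeR adjusted p = 0.733). Il31ra, a cytokine receptor chain, went from 8.71, 8.51 and 7.77 CPM to 12.5, 15.5 and 15.3 CPM (edgeR adjusted p = 0.000439). Among the falls, Maf, a transcription factor of tissue macrophages, stood at 86.2, 78.8 and 78.1 CPM in WT, 56.5, 57.8 and 51.15 in SE and at a mean of 98.6 in SA (edgeR adjusted p = 0.000132). Cybb, the catalytic subunit of the phagocyte oxidase, fell from 1181, 1130 and 1188 CPM to 907, 992.5 and 918 CPM (edgeR adjusted p = 0.00298). Sirpb1a, Sirpb1b and Sirpb1c, neighbouring and closely similar receptor genes whose reads may be shared, were called lower as well, with log2 differences of -0.56, -0.53 and -0.54. Malat1, a nuclear noncoding RNA, averaged 1466 CPM in WT and 1040 in SE (edgeR adjusted p = 0.0023), while Neat1, another, averaged 1529 and 1556 CPM (edgeR adjusted p = 0.853).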
